A study of Homo sapiens with 20 samples.

Results

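The 10 genes described here are EGR1, EGR2, EGR3, FOS, FOSB, FOSL1, JUN, JUNB, ATF3 and ARC, all classed as immediate early genes. They were listed by symbol, mapped to Ensembl gene identifiers and followed over 8, 24 and 72 h of GSK343 plus X5050. All 10 were present among the 57736 genes of the drug libraries and the 53153 genes of the excision libraries. The list was drawn up with results of these libraries already known, in which EGR2 and EGR3 stood out under GSK343. The values with both drugs and with GSK343 alone are therefore given as descriptions with no test. The X5050 and excision comparisons, which the rule did not name, were tested. X5050 was set against the same DMSO libraries as the values on which the genes were chosen. Its calls are therefore no independent support for a change. The fit with X5050 included EGR2 and EGR3, but no test is read for them.

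The study sequenced total RNA of K562, a human erythroleukaemia cell line, in 20 libraries of 10 groups with 2 libraries each. In the drug arm (12 libraries) the cells received 5 uM GSK343, an inhibitor of the histone methyltransferase EZH2, together with 100 uM X5050, an inhibitor of the repressor REST, for 8, 24 or 72 h. The other drug groups received GSK343 alone at 5 uM, X5050 alone at 100 uM, or DMSO, each for 72 h. In the excision arm (8 libraries) CRISPR removed silencer 1 and silencer 2 (DKO), silencer 2 (S2KO) or silencer 1 (S1KO), and cells with an empty vector (EV) were the control. The labels do not say whether the excised lines were clones or pools. Every time point was set against the same DMSO libraries of 72 h, so hours of drug and hours in culture cannot be told apart. The libraries of a group are described as biological replicates. Nothing says whether they were separate cultures, so each p measures the spread between these libraries.

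Immediate early genes are transcribed within minutes of a growth factor, stress or calcium signal from promoters that are already primed, and most of their transcripts and proteins are short-lived. Kinase cascades reach them through serum response factor with its ELK partners at CArG boxes and through CREB and ATF factors at cyclic AMP response elements. The EGR proteins are zinc finger factors, FOS and JUN proteins pair into the transcription factor AP-1, ATF3 is a stress-induced partner and competitor of the same family, and ARC encodes a postsynaptic protein best known from neurons.

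RefSeq promoter windows (GRCh38.p14) were matched for 7 of the 10 genes. The 150 bases before the start are shown for the 6 in which a CArG box or a cyclic AMP type element was found, since these are the elements through which the class is known to be switched on. Capitals mark CArG boxes and the letters TGACGT or TGACNTCA, searched on both strands, so that ACGTCA is TGACGT on the other strand. The windows lie at chr5:138465329-138465478 on the plus strand for EGR1, chr10:62816367-62816516 on the minus strand for the third of 3 EGR2 starts, chr14:75278678-75278827 on the plus strand for FOS, chr19:45467846-45467995 on the plus strand for FOSB, chr1:58784048-58784197 on the minus strand for JUN and chr1:212565257-212565406 on the plus strand for the first of 2 ATF3 starts.
EGR1: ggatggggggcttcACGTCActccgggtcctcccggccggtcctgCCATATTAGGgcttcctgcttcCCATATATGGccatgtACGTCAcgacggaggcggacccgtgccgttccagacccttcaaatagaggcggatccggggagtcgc
EGR2: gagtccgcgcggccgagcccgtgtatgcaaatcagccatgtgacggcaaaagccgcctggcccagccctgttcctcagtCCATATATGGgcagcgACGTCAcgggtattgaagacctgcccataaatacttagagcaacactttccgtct
FOS: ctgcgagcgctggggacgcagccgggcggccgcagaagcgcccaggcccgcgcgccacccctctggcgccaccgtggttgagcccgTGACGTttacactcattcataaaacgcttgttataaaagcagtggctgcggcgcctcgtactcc
FOSB: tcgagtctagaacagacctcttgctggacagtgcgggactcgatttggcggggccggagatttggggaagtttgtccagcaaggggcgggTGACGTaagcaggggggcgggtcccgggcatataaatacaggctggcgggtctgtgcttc
JUN: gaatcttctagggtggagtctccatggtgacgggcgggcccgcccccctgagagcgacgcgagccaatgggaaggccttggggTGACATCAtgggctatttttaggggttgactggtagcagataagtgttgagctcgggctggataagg
ATF3: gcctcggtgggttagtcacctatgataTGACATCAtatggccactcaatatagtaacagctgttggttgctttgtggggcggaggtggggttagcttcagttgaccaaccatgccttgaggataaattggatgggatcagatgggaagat
EGR1 held 2 CArG boxes and EGR2 held 1, a motif found in 1.16% of 35116 promoter windows of 250 bases. Only the 250 bases before each start were searched, so a gene without a match here can hold the motif farther upstream. The letters TGACGT occurred in EGR1, EGR2, FOS and FOSB, against 7.1% of all windows. TGACNTCA, which overlaps TGACGT where N is G, occurred in JUN and ATF3, against 6.87% of all windows. The AP-1 letters TGANTCA were found in none of the 10 windows of these genes and in 6.57% of all windows.

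The drug libraries held 22925617 to 38177320 gene counts and the excision libraries 55913728 to 98507880 estimated counts. Levels below are CPM, counts divided by library size and scaled by TMM factors, not divided by gene length, so they compare libraries within a gene and not genes with each other. In bulk RNA, fewer expressing cells and less RNA per cell cannot be told apart. Summed erythroid markers stood at 1625 CPM or more in every drug library and at 2688 or more in every excision library. With both drugs the erythroid sum was 4968 and 5508 CPM at 8 h, 5587 and 5583 at 24 h and 5973 and 4656 at 72 h, against 2244 and 2414 in DMSO. At 72 h 4 of the 8 erythroid markers were called higher and 4 lower, against 19.2% and 17.3% of all tested genes. The megakaryocytic sum was 53.7 and 59.4 CPM at 24 h, against 22 and 16.8 in DMSO, with GP9 and PF4 at 0 in both groups. Of 6 monocyte markers 3 were called higher at 72 h and 1 lower, beside the same 19.2% and 17.3% of all tested genes. Their summed level was 16.1 CPM in both 72 h libraries, against 18 and 23.1 in DMSO. The part of these markers in the changes with both drugs was not tested. Summed lymphoid markers reached 18.8 CPM at most, and MS4A1, a B cell marker, was at 0 in every group. DMSO replicate 2 stood apart in stress genes, with HSPA1A at 312 CPM against 47 in DMSO replicate 1, and the 11 heat shock genes listed summed to 4095 CPM against 2186. In the excision arm the summed heat shock genes were 7120 CPM in EV replicate 1 and 2629 in EV replicate 2. S2KO split likewise at 8867 and 3045 CPM, and S1KO at 7696 and 3362, while DKO had 7257 and 7943.

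EGR1, EGR2 and EGR3 were high within 8 h of both drugs, had their highest mean at 24 h and were lower at 72 h than at 24 h. EGR1 (ENSG00000120738), the founding member of the family and a target of ERK signalling, had 220 and 90.5 CPM in DMSO, 859 and 876 at 8 h, 1185 and 1234 at 24 h, and 462 and 548 at 72 h. Its groups did not overlap at any step. The fitted log2 fold change of EGR1 against DMSO was 2.48 ± 0.35 (SE) at 8 h, 2.96 ± 0.36 at 24 h and 1.70 ± 0.34 at 72 h, and the log2 difference of 72 h from 24 h was -1.26 ± 0.33. The DMSO libraries of EGR1 lay far apart, and the 72 h value was 2.47 without DMSO replicate 1 and 1.19 without DMSO replicate 2.

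EGR2 and EGR3, which recruit the same NAB corepressors and were close to silent in DMSO, were also high at 8 h, at much lower counts. EGR3 shared the 24 h maximum of EGR1. Its 72 h libraries lay above its 8 h libraries, whereas those of EGR1 lay below. The log2 steps of EGR2 were within their SE, at 0.31 ± 0.34 from 8 h to 24 h and -0.22 ± 0.34 from 24 h to 72 h. EGR3 (ENSG00000179388) had 4 counts and 1 count in the DMSO libraries, or 0.165 and 0.04 CPM, then 4.92 and 6.07 CPM at 8 h, 11 and 10.8 at 24 h, and 6.18 and 8.24 at 72 h. The ratio of EGR3 counts at 24 h to DMSO was 108, with a 95% exact interval of 45.9 to 333 that covers counting error only. EGR2 (ENSG00000122877) had 0.0826 and 0.16 CPM in DMSO, from 2 and 4 counts, then 1.79 and 2.76 at 8 h, 3.11 and 2.54 at 24 h, and 2.37 and 2.48 at 72 h. The 3 treated time points of EGR2 differed little from each other, and its count ratio to DMSO was 19.9 at 72 h, with a 95% interval of 8.88 to 55.3. Without the use of strand, EGR2 had a log2 fold change of 3.20 at 72 h, against 4.27 ± 0.53 with it.

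At 72 h EGR1 and EGR2 were higher with GSK343 alone than with both drugs, EGR3 overlapped between them, and all 3 were lower with X5050 alone. After 72 h EGR1 had 740 and 878 CPM with GSK343 and 330 and 287 with X5050, against 220 and 90.5 in DMSO. EGR2 had 2.62 and 5.18 CPM with GSK343 and 0.61 and 0.622 with X5050. EGR3 had 3.54 and 6.54 CPM with GSK343 and 1.25 and 0.695 with X5050. Set against GSK343 alone, both drugs at 72 h gave a lower EGR1 level in both libraries, with a log2 difference of -0.68 ± 0.33. EGR2 differed by -0.69 ± 0.34 in the same direction, a value that was -0.10 without GSK343 replicate 2, and the libraries of EGR3 overlapped.

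The FOS genes were higher at each step and highest at 72 h. FOS (ENSG00000170345), whose protein cannot bind DNA without a JUN partner, had 12.3 and 3.04 CPM in DMSO, 56.8 and 62.2 at 8 h, 119 and 127 at 24 h, and 173 and 212 at 72 h. FOSB (ENSG00000125740), its paralogue known in neurons for a long-lived splice form, had 2.15 and 1.2 CPM in DMSO, 11 and 12.1 at 8 h, 31.1 and 33.1 at 24 h, and 74.5 and 62.8 at 72 h. No library of a later time point fell to the level of an earlier one for either gene. The fitted log2 fold change at 72 h against DMSO was 4.65 ± 0.61 for FOS and 5.36 ± 0.22 for FOSB. FOSL1 (ENSG00000175592), which encodes FRA1 and is known as a later AP-1 member, had 10.5 and 6.44 CPM in DMSO, 14.3 and 14.8 at 8 h, 22.7 and 22.2 at 24 h, and 33.9 and 40.8 at 72 h. The log2 fold change of FOSL1 at 72 h was 2.14 ± 0.20, the smallest of these 3 genes.

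Each drug alone gave part of the FOS level seen with both. FOS had 37.5 and 21.4 CPM with GSK343 and 28.6 and 18.4 with X5050, which overlap each other and lie above DMSO. FOSB had 4 and 4.14 CPM with GSK343 and 6.71 and 5.56 with X5050, so X5050 libraries were the higher ones. FOSL1 had 12.8 and 16.5 CPM with GSK343 and 12.8 and 11.7 with X5050. With both drugs the log2 difference from GSK343 alone was 2.71 ± 0.54 for FOS, 4.07 ± 0.19 for FOSB and 1.35 ± 0.19 for FOSL1.

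JUN (ENSG00000177606), the main DNA-binding partner of FOS, was the gene whose DMSO libraries disagreed most. JUN had 45.3 and 222 CPM in DMSO, 135 and 127 at 8 h, 381 and 339 at 24 h, and 464 and 520 at 72 h. The 8 h libraries lay between the DMSO libraries, and the 24 h and 72 h libraries lay above both. The log2 fold change of JUN at 72 h was 1.88 ± 0.65, and it was 1.14 without DMSO replicate 1 and 3.43 without DMSO replicate 2. At 8 h the sign itself depended on the library, with -0.03 in the full fit, -0.77 without DMSO replicate 1 and 1.53 without DMSO replicate 2. With GSK343 alone JUN had 60.8 and 96.9 CPM, and with X5050 alone 98 and 83.5, both within the DMSO spread. The high DMSO library is replicate 2, the library with the high heat shock genes, and the part of that in the JUN values was not tested.

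JUNB (ENSG00000171223), a JUN paralogue that often limits JUN activity, was higher at each time point than at the one before. JUNB had 61.9 and 43.2 CPM in DMSO, 97.3 and 108 at 8 h, 179 and 178 at 24 h, and 264 and 365 at 72 h. Its libraries lay far apart at 72 h, and the log2 difference of 72 h from 24 h was 0.81, or 0.54 without the second 72 h library. The log2 fold change of JUNB against DMSO was 0.97 ± 0.18 at 8 h, 1.77 ± 0.18 at 24 h and 2.58 ± 0.19 at 72 h. GSK343 alone gave 116 and 120 CPM and X5050 alone 98.9 and 77.4, all above DMSO and below the 72 h libraries with both drugs.

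ATF3 (ENSG00000162772), a stress-response member of the ATF/CREB family, had its highest level at 24 h, as EGR1 and EGR3 did. ATF3 had 60.5 and 28.9 CPM in DMSO, 144 and 137 at 8 h, 201 and 185 at 24 h, and 140 and 145 at 72 h. The 24 h libraries were the highest, and the 8 h and 72 h libraries overlapped. GSK343 alone gave 102 and 92.9 CPM and X5050 alone 50.7 and 67.5, and the X5050 libraries overlapped DMSO. The log2 fold change of ATF3 with both drugs at 72 h was 1.67 ± 0.27.

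ARC (ENSG00000198576) had the largest fitted fold change of the 10 genes at 72 h, a log2 value of 9.18 ± 0.31 against DMSO. DMSO cells held 5 and 7 ARC counts, or 0.206 and 0.28 CPM, and the level was 2.55 and 2.96 CPM at 8 h, 21.9 and 23.9 at 24 h, and 149 and 140 at 72 h. Each step was a multiple of the one before, and the replicates of a time point stayed close. The ARC count ratio to DMSO was 11.4 at 8 h (95% interval 6.36 to 22.3), 93.8 at 24 h (53.5 to 182) and 591 at 72 h (338 to 1144). Neither drug alone came near this, with 0.496 and 1.14 CPM for GSK343 and 4.31 and 2.71 for X5050. The log2 difference of both drugs from X5050 alone at 72 h was 5.36 ± 0.23.

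**Figure D1:**
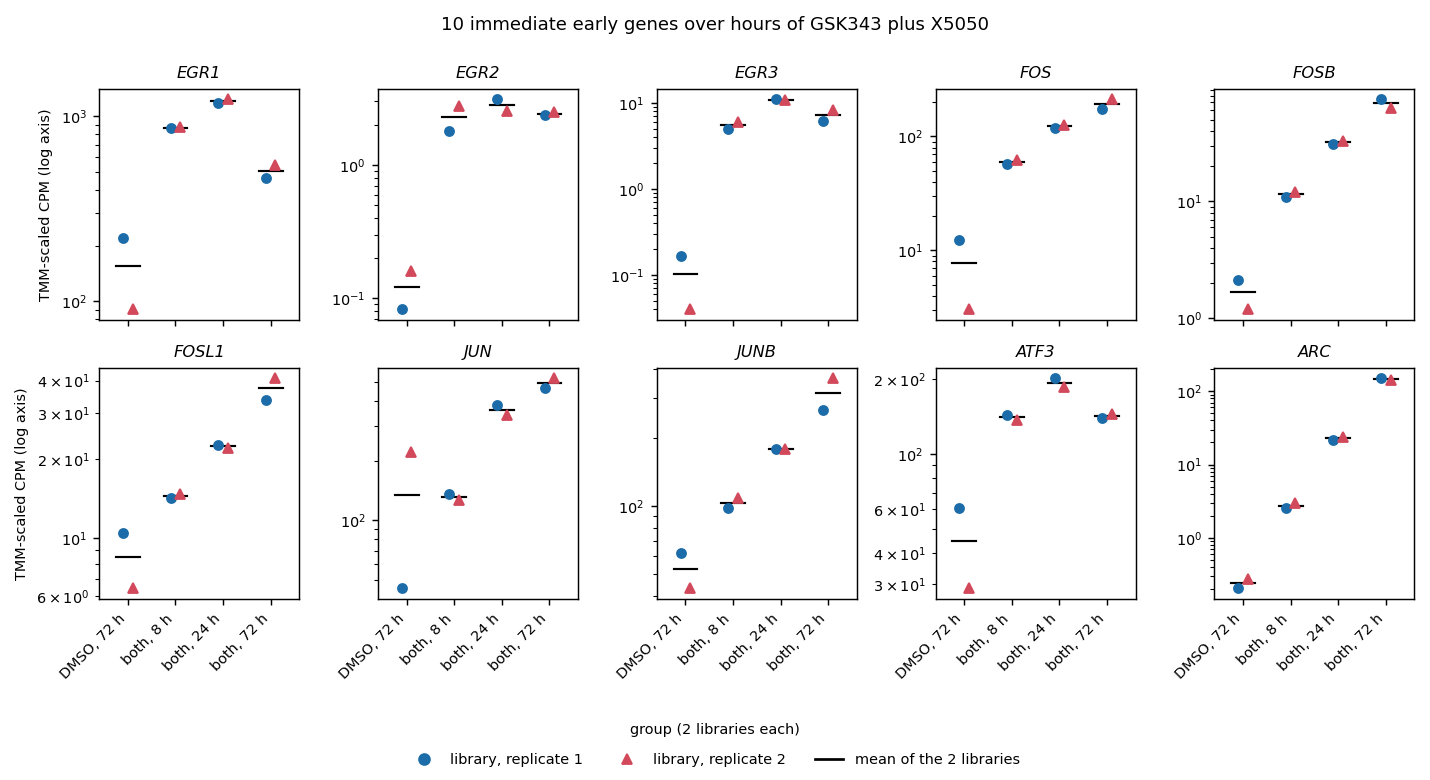
CPM of the 10 genes in each library on log axes, for DMSO and for both drugs at 8, 24 and 72 h, with circles for replicate 1, triangles for replicate 2 and a bar for the mean of the 2 libraries. EGR1, EGR2, EGR3 and ATF3 have their highest mean at 24 h, and the other 6 genes have it at 72 h.

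Over all 10 genes, 9 had both libraries above both DMSO libraries at 8 h, where 34.5% of all tested genes did, and all 10 did at 24 h and at 72 h, against 35.2% and 33.4% of tested genes. These counts are descriptions, since the genes were chosen on such values, and nothing is read from them. From 24 h to 72 h FOS, FOSB, FOSL1, JUN, JUNB and ARC were higher in both 72 h libraries, as were 41% of tested genes. EGR1, EGR2, EGR3 and ATF3 were lower in both, as were 36.1% of tested genes, a share near theirs. For EGR2 the higher 72 h library had 2.48 CPM and the lower 24 h library 2.54. No split of the 10 genes is read from these counts. With GSK343 alone 9 of 10 were above DMSO in both libraries, against 27.1% of tested genes, and JUN was the exception. Both drugs at 72 h exceeded GSK343 alone in 7 genes and were below it in EGR1 and EGR2, where 35.2% of tested genes were higher and 37.6% lower. They exceeded X5050 alone in all 10 genes, against 36.4% of tested genes.

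The 72 h groups also show how far the drugs together departed from the sum of the drugs apart. On the log2 scale, the value of both drugs minus that sum was 3.60 ± 0.70 for ARC, 2.20 ± 0.30 for FOSB and 3.20 ± 0.92 for JUN. It was 0.81 ± 0.28 for FOSL1 and 0.67 ± 0.25 for JUNB. It was negative for the EGR genes, at -1.67 ± 0.47 for EGR1, -2.99 ± 0.70 for EGR2 and -2.70 ± 0.73 for EGR3. These 8 signs held with either DMSO library left out, though JUN went to 1.63 without DMSO replicate 2 and FOSL1 to 0.41 and JUNB to 0.38 without DMSO replicate 1. FOS at 1.09 ± 0.77 and ATF3 at 0.14 ± 0.37 did not keep their sign, with -0.24 and -0.49 without DMSO replicate 1.

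**Figure D2:**
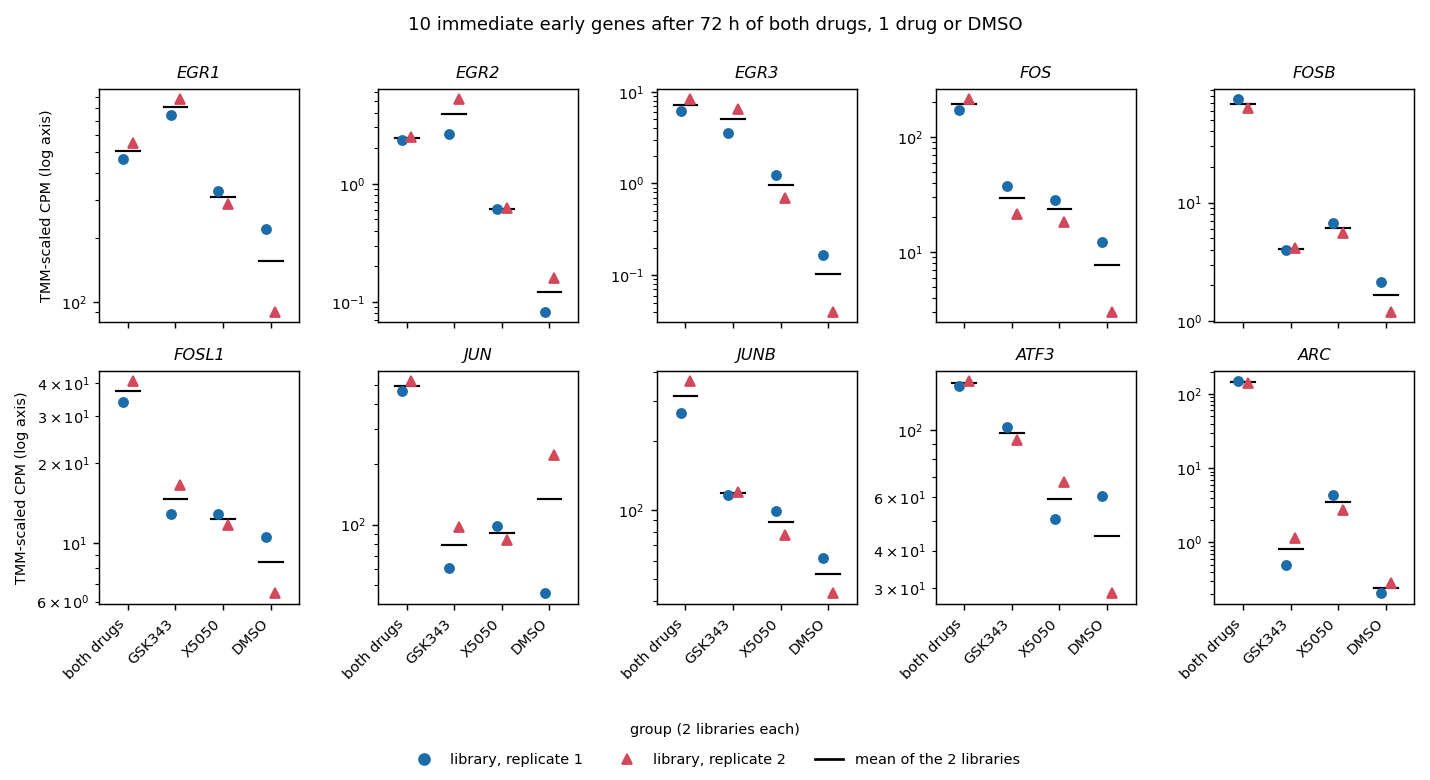
CPM of the 10 genes in each library on log axes after 72 h of both drugs, GSK343 alone, X5050 alone or DMSO, with circles for replicate 1, triangles for replicate 2 and a bar for the mean of the 2 libraries. ARC stands at 149 and 140 CPM with both drugs and at 4.31 CPM or less in the other groups, while EGR1 is higher with GSK343 alone than with both drugs.

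With X5050 alone FOSB and JUNB were called higher by edgeR's quasi-likelihood test with Benjamini-Hochberg adjustment over all 19224 genes. The same fit put ARC, EGR3 and EGR2 past the threshold, which makes 5 of 10 genes. No test is read for EGR2 and EGR3. Of all tested genes 5.34% were called higher and 7.23% lower. No member was called lower. FOSB rose by a log2 fold change of 1.88 ± 0.22 (adjusted p 8.96e-05). ARC was at 3.83 ± 0.39 (adjusted p 2.37e-05, and 5.15e-32 with no filter). ARC, EGR2 and EGR3 passed the filter on low counts through drug-treated libraries, not through DMSO. The ARC call and the count of 5 are therefore no support for a change. JUNB rose by 0.75 ± 0.18 (adjusted p 0.0143). The FOSB and JUNB calls use the same DMSO libraries as the values on which the genes were chosen. They are therefore no independent support for a change. The log2 fold change was 3.22 ± 0.63 for EGR3 and 2.30 ± 0.61 for EGR2, given with no test, since both genes stood out under GSK343 against the same DMSO libraries. EGR1 at 0.99 ± 0.33 (adjusted p 0.097), FOSL1 at 0.54 ± 0.20 (0.0942) and FOS at 1.62 ± 0.58 (0.128) did not pass, although both X5050 libraries lay above both DMSO libraries in each. ATF3 at 0.40 ± 0.27 and JUN at -0.56 ± 0.64 overlapped DMSO. With X5050 8 of the 10 genes had both libraries above both DMSO libraries, against 21.1% of tested genes. The median log2 fold change was 1.30 over the 10 genes and -0.03 over all tested genes.

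The X5050 calls rest on few libraries. FOSB passed in every alternative that kept both libraries of each group, and was at 1.52 to 2.35 with 1 library left out. ARC also passed in the alternatives, but its call is no support for a change. JUNB had an adjusted p of 0.128 without X5050 replicate 1 and 0.096 without DMSO replicate 2. The log2 fold change of EGR3 was 2.75 without X5050 replicate 1. That of EGR2 was 1.92 without DMSO replicate 1 and 1.46 with unstranded counts. The count of genes called was 2 without X5050 replicate 1 and 9 without DMSO replicate 1. The direction of JUN depended on the library left out, with 1.01 (adjusted p 0.0282) without DMSO replicate 2 and -1.29 (adjusted p 0.00415) without DMSO replicate 1.

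With the double silencer excision edgeR called FOSB and ARC higher. These were the 2 genes called of the 8 that passed the filter on low counts. Both calls were lost with any 1 library left out. Of 21285 tested genes 5.41% were called higher in DKO and 3.35% lower. EGR2 and EGR3 had at most 17 counts in any excision library and did not pass the filter on low counts. ARC passed that filter only through the DKO and S2KO libraries, where it was high, so its call and the count of 2 are no support for a change. ARC had 52 and 53 counts in DKO, or 0.89 and 0.856 CPM, 34 and 45 counts in S2KO, 17 and 4 in S1KO, and 2 and 5 in EV, or 0.0253 and 0.0597 CPM. The DKO and S2KO libraries lay above both EV libraries and S1KO overlapped EV. The log2 fold change of ARC in DKO was 4.30 ± 0.73 (adjusted p 0.0159, and 0.0037 with no filter), and the count ratio was 20.3 (95% interval 9.51 to 51.7). In S2KO it was 3.54 ± 0.73 (adjusted p 0.0767) and in S1KO 1.31 ± 0.76 (adjusted p 0.511).

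FOSB had 2.43 and 4.36 CPM in DKO, 0.515 and 0.67 in S2KO and 1.12 and 0.617 in S1KO, against 0.759 and 0.502 in EV. Only the DKO libraries lay above both EV libraries, and FOSB rose there by 2.43 ± 0.48 (adjusted p 0.0267). Its partner gene FOS had 8.1 and 16.1 CPM in DKO, 3.55 and 7.77 in S2KO and 6.87 and 7.96 in S1KO, against 3.59 and 2.39 in EV. The DKO and S1KO libraries lay above EV and S2KO overlapped it. FOS in DKO was 2.01 ± 0.49 (adjusted p 0.0544), and it passed with DESeq2 (adjusted p 0.000729), with no filter (0.0297) and with length-scaled TPM counts (0.0404). It passed in no fit with 1 of the 4 libraries left out. The ARC call in DKO was lost with any 1 of the 4 libraries left out, at adjusted p of 0.0619 to 0.0885. The FOSB call was lost likewise, at 0.0651 to 0.176, and also with length-scaled TPM counts at 0.0718. Other markers moved with DKO. The erythroid markers summed to 16143 and 18685 CPM in DKO, against 6192 and 2688 in EV. The 9 fibroblast and epithelial markers summed to 223 and 200 CPM in DKO, against 86.9 and 63.7 in EV, with LUM, KRT5 and KRT14 at 0 in both groups. COL1A1 and COL1A2 were called higher of the 6 tested, beside 5.41% of all tested genes. The part of these marker sums in the ARC and FOSB results was not tested.

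EGR1, FOSL1, JUN, JUNB and ATF3 did not pass the test in any excised group, and EGR2 and EGR3 were not tested there. EGR1 had 40 and 59 CPM in DKO, 25 and 40.1 in S2KO and 34.5 and 27.6 in S1KO, against 37.7 and 7.78 in EV, so its EV libraries spanned most of the range. JUNB had 53.6 and 52.9 CPM in DKO against 41.1 and 24.7 in EV, a log2 fold change of 0.69 ± 0.26 (adjusted p 0.16). Without EV replicate 1 EGR1 passed in DKO at 2.64 (adjusted p 0.0265) and JUNB at 1.08 (adjusted p 0.0464). FOSL1 had 12.4 and 14.3 CPM in DKO against 9.34 and 3.84 in EV. JUN overlapped EV in every excised group. ATF3 split by replicate number, with 12.9 and 73.2 CPM in S2KO, 15.4 and 78.8 in S1KO and 8.29 and 37 in EV, while DKO had 21.7 and 19.9. The high ATF3 libraries are the replicate 2 libraries with the low heat shock sums, and the part of that split in the ATF3 values was not tested. In S2KO and S1KO edgeR called none of the 8 genes, where it called 1.45% and 2.44% of tested genes higher and 0.554% and 1.23% lower, with 1 gene at an unadjusted p under 0.05 in each, and DESeq2 called 1 gene in S2KO and none in S1KO. Both libraries lay above EV for 6 of the 10 genes in DKO, where 30.2% of tested genes did, and for 1 each in S2KO and S1KO, where 17% and 21.1% did.

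**Figure D3:**
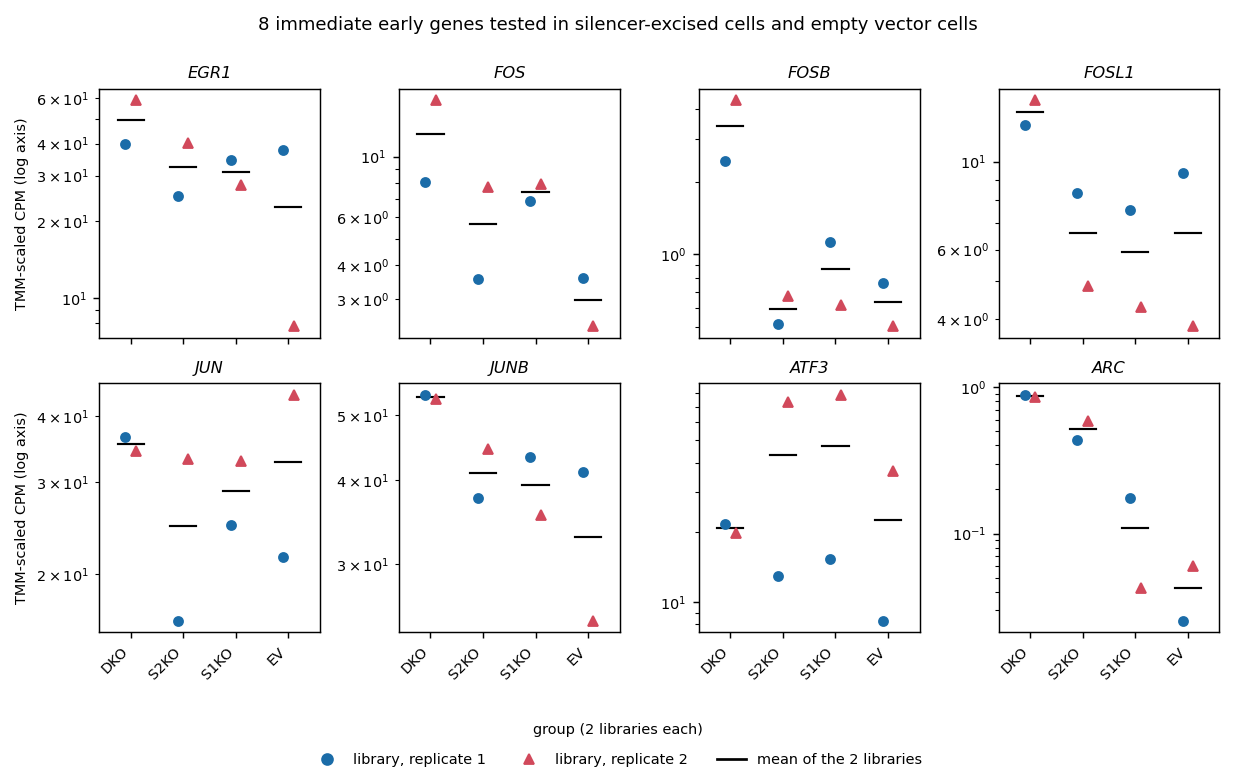
CPM of the 8 genes tested in the excision arm on log axes, in DKO, S2KO, S1KO and EV cells, with circles for replicate 1, triangles for replicate 2 and a bar for the mean of the 2 libraries. ARC and FOSB are highest in both DKO libraries, and ATF3 is high in replicate 2 of S2KO, S1KO and EV.

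**Figure D4:**
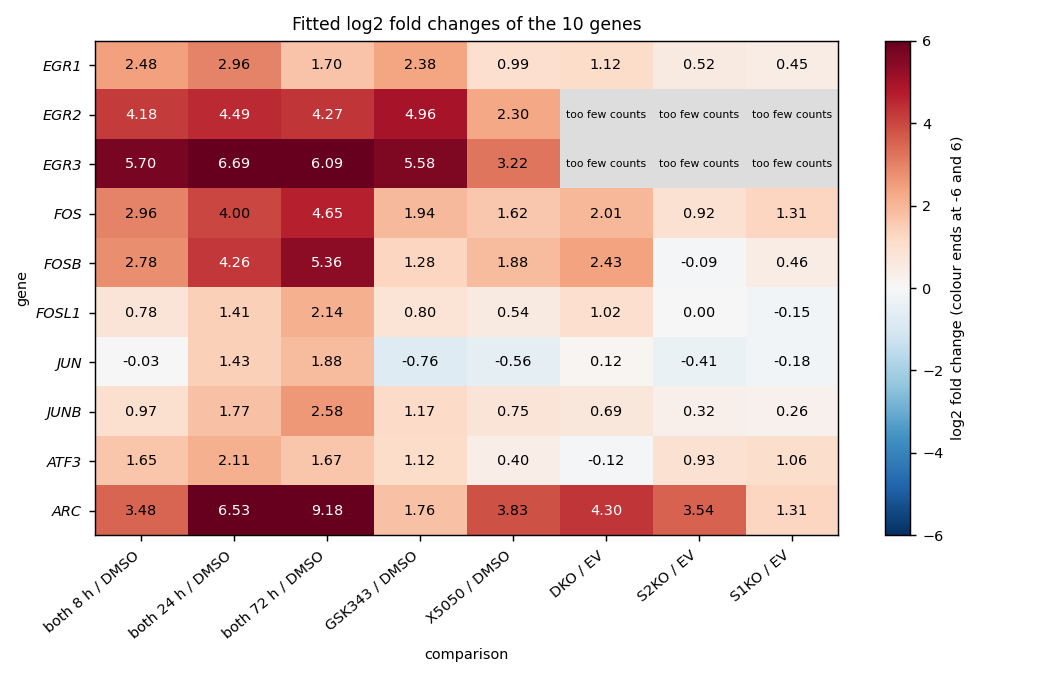
Fitted log2 fold changes of the 10 genes (rows) in the 8 comparisons with a control (columns), with red for higher and blue for lower than the control and grey where too few counts were left to fit. ARC reaches 9.18 and EGR3 6.09 with both drugs at 72 h, and JUN has the lowest value of the table at -0.76 with GSK343.

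Genes of the same class outside the list were also listed with results of these libraries known, so their counts are descriptions beside the share of all genes. Of 38 such genes, 34 had enough counts in the drug arm. With both drugs 21 were called higher and 2 lower at 8 h, 29 higher and 1 lower at 24 h, and 31 higher and 0 lower at 72 h, where 21.8%, 22% and 19.2% of all tested genes were called higher and 21.2%, 21.1% and 17.3% lower. The median log2 fold change of the list was 0.62 at 8 h, 1.46 at 24 h and 2.32 at 72 h, beside medians of -0.01, -0.02 and 0.01 over all genes. At 72 h ZFP36L2, MYC and IER2 did not pass. With GSK343 alone 12 were higher and 1 lower, against 9.12% and 3.31% of tested genes. With X5050 alone 13 were higher and 3 lower, against 5.34% and 7.23% of tested genes. Without GSK343 replicate 2 the GSK343 count was 7 in all, and without X5050 replicate 1 the X5050 count was 9.

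RHOB, a small GTPase, had 12.7 and 13.7 CPM at 8 h and 52.3 and 34.9 at 72 h, against 1.4 and 1.8 in DMSO, and rose by 3.04 ± 0.26 at 8 h (adjusted p 5.93e-07). GADD45B, a stress and growth arrest gene, had 9.64 and 9.06 CPM at 8 h, 9.8 and 9.32 at 24 h and 170 and 169 at 72 h, against 2.64 and 1.76 in DMSO. Its rise at 72 h was 6.27 ± 0.19 (adjusted p 3.86e-12), of which 2.12 ± 0.19 was present at 24 h. GEM, a GTP-binding inhibitor of calcium channels, stayed at 0.234 and 0.23 CPM at 8 h and reached 36.1 and 38.9 at 72 h, against 0.206 and 0.36 in DMSO, a rise of 7.02 ± 0.32 (adjusted p 3.06e-10). GEM passed the filter on low counts through drug-treated libraries, not through DMSO, so its call is no support for a change. NR4A1, an orphan nuclear receptor, fell at 8 h to 6.8 and 7.17 CPM, against 10.9 and 10.6 in DMSO (adjusted p 0.00548), and rose at 24 h by 3.01 ± 0.16 (adjusted p 1.29e-09). KLF6, a zinc finger factor, was at 1183 and 1151 CPM at 24 h and 684 and 784 at 72 h, against 62.6 and 98.4 in DMSO. It shared the 24 h height of EGR1 and EGR3. In DKO cells SGK1, BTG2 and TRIB1 were the 3 called higher of 33 tested, beside 5.41% of all tested genes, SGK1 by 1.92 ± 0.29 (adjusted p 0.0104), and edgeR called 0 in S2KO and S1KO, with 2 and 6 at an unadjusted p under 0.05, as did DESeq2. Without either DKO library the DKO count was 0 and without EV replicate 1 it was 1.

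**Figure D5:**
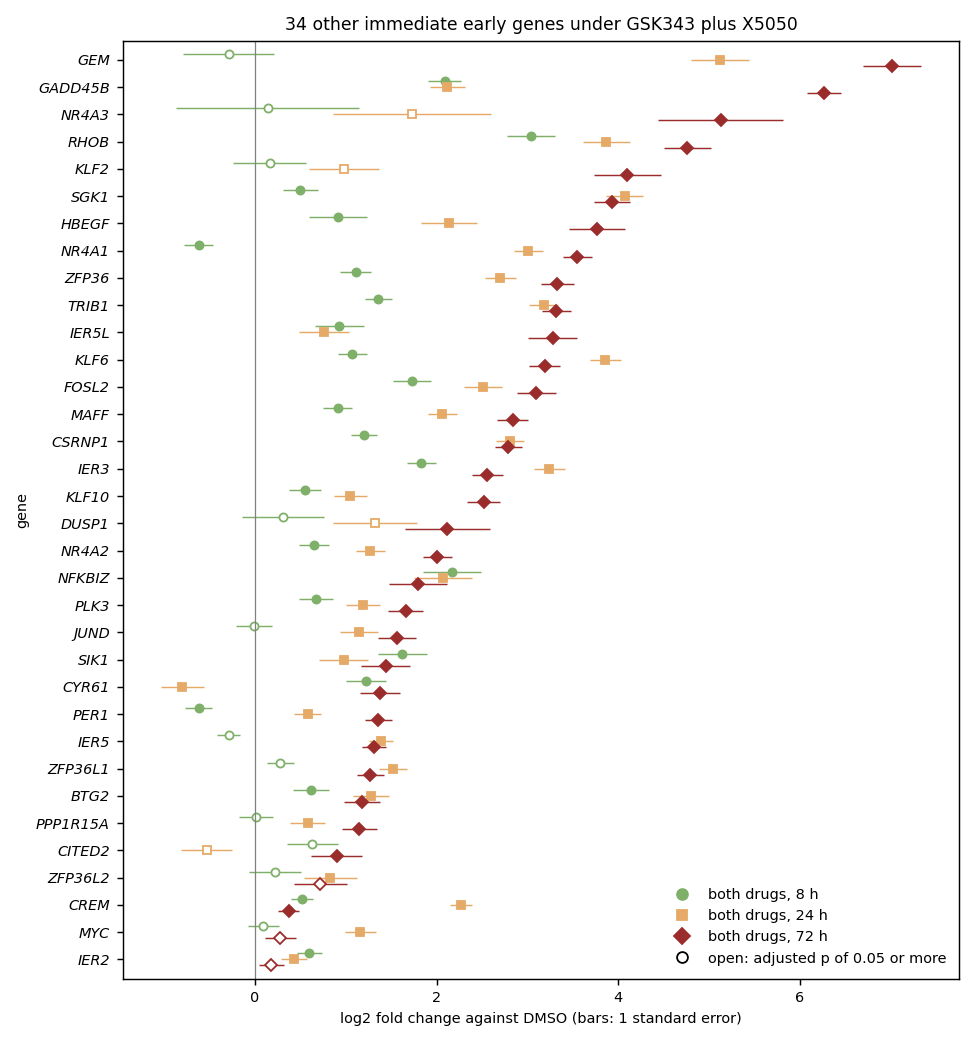
Log2 fold changes against DMSO of 34 other immediate early genes (rows, ordered by the 72 h value) with both drugs at 8 h (circles), 24 h (squares) and 72 h (diamonds), with bars of 1 standard error and open symbols for adjusted p of 0.05 or more. GEM and GADD45B lie farthest to the right at 72 h, at 7.02 and 6.27, and IER2 and MYC lie near 0.

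Of 14 AP-1 dimer partners and competitors, 2 rose and 2 fell at 8 h, 9 rose and 2 fell at 24 h, and 9 rose and 0 fell at 72 h. At 8 h these shares were below the 21.8% and 21.2% of all tested genes called higher and lower, and at 24 and 72 h the higher share was above the 22% and 19.2% of all genes. FOSL2, which encodes FRA2 and was also among the 38 genes above, had a mean of 38.8 ± 3.39 CPM (SD) at 72 h, against 4.52 ± 0.906 in DMSO, and rose by 3.10 ± 0.21 (adjusted p 2.42e-08). MAFF, a small MAF protein, rose by 2.84 ± 0.17 at 72 h (adjusted p 5.49e-09). BACH2, a repressor at MAF elements, rose by 2.77 ± 0.19 at 24 h (adjusted p 2.58e-08) and then fell, with 26.1 CPM at 72 h against 78.5 at 24 h, a log2 fold change of -1.59 ± 0.18. BATF, an AP-1 member of lymphoid cells, was called higher in DKO (adjusted p 0.0111), at 1.32 and 1.84 CPM against 0 and 0.0358 in EV. That call was lost without either DKO library. BATF passed the filter on low counts through excised libraries, not through EV, so its call is no support for a change.

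Genes known as AP-1 targets in other cells were called higher in 3 of 12 tested at 8 h with 1 lower, near the 21.8% of all tested genes called higher. At 24 h 10 were higher and at 72 h 11, with none lower, against 22% and 19.2% of all tested genes. CXCL8, a neutrophil chemokine also under NF-kB control, had 180 ± 9.79 CPM at 8 h, 1145 ± 14.5 at 24 h and 266 ± 94.6 at 72 h, against 0.735 ± 0.304 in DMSO. MMP1, a collagenase, was the gene called lower at 8 h, at 0.0293 and 0 CPM against 0.0826 and 0.36 in DMSO, and rose at 72 h by 5.65 ± 0.46 (adjusted p 1.69e-07). MMP1 passed the filter on low counts through drug-treated libraries, not through DMSO, so its call at 72 h is no support for a change. The MMP1 call at 8 h was lost without DMSO replicate 2 (adjusted p 0.224) and without 8 h replicate 2 (0.0772). With X5050 alone 5 of the 12 rose, CXCL8 by 5.98 ± 0.30 (adjusted p 2.95e-07), and with GSK343 alone 4 rose. Of all tested genes 5.34% were called higher with X5050 and 9.12% with GSK343. In DKO cells 4 of 11 tested rose, among them CD44, CXCL8 and MMP1. VIM, an intermediate filament gene, fell to 106 ± 14 CPM against 1042 ± 189 in EV. Of all tested genes 5.41% were called higher in DKO and 3.35% lower. CD44, an adhesion receptor, rose there by 3.16 ± 0.44 (adjusted p 0.00754), a call lost without DKO replicate 2 (adjusted p 0.0604). The CXCL8 call was lost with any 1 library left out, at adjusted p of 0.069 to 0.146. The MMP1 call was lost without DKO replicate 1 (0.099), DKO replicate 2 (0.121) or EV replicate 1 (0.075), by edgeR's adjusted p.

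Of 9 EGR corepressors and target genes, 5 rose and 1 fell at 8 h, 7 rose at 24 h, and 7 rose and 1 fell at 72 h. At these times 21.8%, 22% and 19.2% of all tested genes were called higher and 21.2%, 21.1% and 17.3% lower. NAB2, the corepressor that EGR proteins induce and that then restrains them, had 78.5 ± 8.92 CPM at 8 h, 87.6 ± 2.28 at 24 h and 83.1 ± 14.7 at 72 h, against 26.6 ± 2.65 in DMSO. PDGFA, a growth factor with EGR sites in its promoter, had 42.4 ± 5.92, 65.8 ± 3.16 and 50.3 ± 3.33 CPM at these times, against 3.46 ± 0.365 in DMSO. PDGFA also rose with each drug alone, by 2.39 ± 0.17 with GSK343 (adjusted p 4.73e-07) and by 2.65 ± 0.17 with X5050 (adjusted p 2.95e-07). None of the 9 was called in DKO, S2KO or S1KO by edgeR, with 3, 0 and 1 at an unadjusted p under 0.05, while DESeq2 called 3, 0 and 1. In these groups edgeR called 5.41%, 1.45% and 2.44% of all tested genes higher and 3.35%, 0.554% and 1.23% lower.

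Readouts of the ERK pathway rose in 6, 7 and 8 of 12 tested genes at 8, 24 and 72 h, with 2, 1 and 1 lower. SPRY4, a feedback inhibitor of receptor signalling, had 95.9 ± 3.81 CPM at 8 h, 269 ± 7.89 at 24 h and 96.5 ± 16.8 at 72 h, against 31.6 ± 3.47 in DMSO. DUSP5, a nuclear ERK phosphatase, rose by 3.92 ± 0.21 at 24 h (adjusted p 2.29e-09) and DUSP4, its relative, by 4.02 ± 0.31 at 72 h (adjusted p 1.05e-07). With GSK343 alone 6 rose, CCND1, the cyclin D1 gene, by 2.84 ± 0.19 (adjusted p 4.58e-07), and with X5050 alone 5 rose. With these drugs 9.12% and 5.34% of all tested genes were called higher. Of 26 factors and kinases upstream, 12 were called higher and 3 lower at 8 h, 14 and 5 at 24 h, and 8 and 2 at 72 h. Of all tested genes 21.8%, 22% and 19.2% were higher and 21.2%, 21.1% and 17.3% lower, so the lower counts were near or under that share. ELK1, an SRF partner, had 199 ± 1.53 CPM at 24 h, against 75 ± 7.78 in DMSO, while SRF itself fell to 52.2 ± 1.63 CPM, against 88 ± 5.01 in DMSO (adjusted p 3.23e-05).

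Of 8 genes of the ATF4 branch, 1 rose and 1 fell at 8 h and at 24 h, and 2 rose and 2 fell at 72 h. The 8 h and 24 h shares were below those of all tested genes, and at 72 h 19.2% of all genes were higher and 17.3% lower. DDIT3, which encodes CHOP, rose by 1.02 ± 0.14 at 24 h (adjusted p 3.54e-05), and ASNS, asparagine synthetase, fell at 72 h to 342 ± 8.41 CPM, against 1431 ± 60.1 in DMSO. Of 11 heat shock genes, 2 rose and 2 fell at 8 h, 7 rose at 24 h, and 5 rose and 1 fell at 72 h. The 8 h shares were close to the 21.8% higher and 21.2% lower of all tested genes. At 24 h 22% of all tested genes were called higher and 21.1% lower, and at 72 h 19.2% and 17.3%. These heat shock counts depended on DMSO replicate 2, the library with high heat shock genes, and nothing is read from them. The summed heat shock genes were 3859 and 4140 CPM at 8 h, 9148 and 8938 at 24 h and 5911 and 5882 at 72 h. Most of the 24 h sum was HSPA8, at 3650 and 3588 CPM, and HSP90AA1, at 3363 and 3365. These genes, HSPD1 and HSPE1 were lower at 72 h than at 24 h, and HSPH1 overlapped. HSPA1A, HSPA1B, HSPA6, DNAJB1, HSPB1 and BAG3 were higher at 72 h, HSPA1A at 482 and 514 CPM against 228 and 211 at 24 h. The part of the heat shock genes in the JUN and ATF3 values was not tested.

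Across the 5 drug groups, the genes with the course most like that of a member were found by the root mean square difference of log2 fold changes against DMSO, among the 14070 genes averaging 1 CPM or more. The measure is a description, since all 5 values share the DMSO libraries. DUSP1, a stress-induced phosphatase, was nearest to JUN at 0.21, followed by CREBRF at 0.30 and CLK1 at 0.32. DUSP1 had 18.7 and 62.1 CPM in DMSO, the same order of libraries as JUN. TSGA10, NFKBIZ and MARCH3 were nearest to ATF3 at 0.26, 0.31 and 0.32. SERPINB8, SPRY4 and ARHGAP25 were nearest to EGR1 at 0.43, 0.47 and 0.49, and SLCO2B1, PDGFA and SLAMF7 were nearest to FOS at 0.60, 0.69 and 0.70.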

How the data were processed

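Total RNA libraries (stranded, rRNA-depleted, per the labels' protocols) were trimmed with Trimmomatic 0.38 and aligned with STAR 2.7.3a or quantified with kallisto 0.44.0, per the submitters' processing notes. For the drug arm the authors deposited read counts per gene, of which the reverse-strand column was used. Reads assigned to no feature made up 19.78 to 26.98% and were left out. For the excision arm the authors deposited estimated counts and TPM per transcript. These were summed per gene for the 84.7% of transcripts matched through GENCODE 29 and rounded, and they held 87.8 to 90.4% of the counts. The arms were never compared with each other.

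Each arm was fitted with edgeR 4.0.16 (R 4.3.3), with TMM factors, its filter on low counts, 1 mean per group and the quasi-likelihood test. The threshold was a Benjamini-Hochberg adjusted p of 0.05 over 19224 genes (drug) or 21285 genes (excision). Standard errors come from the same fit, and each ± after a CPM mean is an SD of 2 libraries. DESeq2 1.42.0 was an alternative. The fits were tested on simulated data. Intervals of count ratios cover counting error only.

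The members and lists were chosen with earlier results of these data known. Text names all 10 members, up to 4 called genes with the lowest p per list and comparison, and the 3 nearest genes for EGR1, FOS, JUN and ATF3. Genes named to complete a count, and other times or groups of a named gene, were chosen after their values were seen. Values of 1 listed gene are not reported here.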

Additional observations from a re-analysis of the deposited data

How the results depend on the processing

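Calls of genes in the other lists kept direction and side of the threshold in 1929 of 2161 alternatives, and the counts of the other immediate early genes with both drugs stayed at 18 to 23, 25 to 28 and 29 to 32 at 8, 24 and 72 h with any 1 library left out. Over the alternatives for the tested members, 280 of 339 kept direction and side of the threshold, 18 passed newly, 16 were lost and 25 turned direction. With X5050, DESeq2 called 8 of the 10 genes and leaving out 1 library gave 2 to 9. In DKO leaving out 1 library gave 0 to 2, and in S2KO DESeq2 and no filter called 1 each. For the other immediate early genes, fits of only the groups compared called 8 with GSK343 and 8 with X5050, against 13 and 16, and DESeq2 called 7 in DKO, against 3. Leaving out 1 library gave 7 to 16 with GSK343, 9 to 17 with X5050 and 0 to 2 in DKO. The cause was not tested.

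The same-numbered libraries were not paired by the labels, and their replicate differences correlated at -0.05 to 0.23 in the drug arm, at 0.49 to 0.62 among S1KO, S2KO and EV, and at -0.08 to -0.06 with DKO. With the replicate block, 2 other immediate early genes were called in S1KO and 7 in DKO, FOS passed in DKO (adjusted p 0.0291) and ATF3 in DKO was 0.51.

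Directions turned with 1 library left out as follows, in log2 fold change. With X5050 JUN ranged over -1.29 to 1.01 and ATF3 over -0.03 to 1.03. In S1KO the ranges were -0.29 to 1.97 for EGR1, -0.03 to 0.83 for FOSB, -0.66 to 0.60 for FOSL1, -0.64 to 0.41 for JUN, -0.07 to 0.65 for JUNB, -0.56 to 2.49 for ATF3 and -0.00 to 2.03 for ARC. In S2KO they were -0.21 to 2.04 for EGR1, -0.36 to 0.22 for FOSB, -0.50 to 0.77 for FOSL1, -1.02 to 0.19 for JUN, -0.00 to 0.71 for JUNB and -0.82 to 2.37 for ATF3. In DKO they were -0.33 to 0.71 for JUN and -0.85 to 1.32 for ATF3. FOSL1 in S2KO was -0.00 with no filter and with length-scaled TPM counts, and ATF3 in DKO was 0.04 with length-scaled TPM counts. None of these passed in the fit of all libraries. The interaction without each DMSO library was added after seeing the data.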
